A study of Mus musculus with 7 samples.

Results

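Amino acid transporter solute carriers are the membrane proteins that carry amino acids across the plasma membrane and the membranes of lysosomes and vesicles. The set comprised the genes of 7 solute carrier families (Slc1a, Slc3a, Slc6a, Slc7a, Slc36a, Slc38a and Slc43a), taken by symbol, without pseudogenes, without the 4 opposite-strand transcripts that carry a family symbol, and without the cystine carrier Slc7a11. It held 62 of the 46603 gene rows, and the 31 genes with 10 or more reads in at least 3 of the 7 libraries are described. The cells were TRAMP-C1, a line of prostate epithelial tumour cells from the mouse strain C57BL/6-TgN(TRAMP)8247Ng. The 3 empty vector libraries came from cells transduced with the unmodified lentiviral plasmid Lv229. The 3 fusion libraries came from cells transduced with Lv229 carrying PAX8-NFE2L2, a gene fusion that joins the thyroid transcription factor PAX8 to NRF2, the antioxidant transcription factor encoded by NFE2L2. Transduced cells were left 12 h with virus and then 24 h in fresh medium. The single WT library carries no overexpression label. All 7 libraries came from the same cell line. The sources used here do not give the promoter that drove the construct or the share of cells that took up virus. Nothing in the labels says that replicates came from separate cultures, so the p-values measure the spread between these libraries, which may be technical.

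Amino acid transporters work in layers. Sodium-coupled carriers such as Slc38a2 and Slc6a6 accumulate small substrates inside the cell. Exchangers such as Slc1a5 and Slc7a5 trade amino acids inside the cell for others outside it, large neutral ones among them. Heavy chains of the SLC3 family are not carriers themselves: Slc3a2 escorts the light chains Slc7a5, Slc7a6, Slc7a7, Slc7a8 and Slc7a11 to the plasma membrane. NRF2 is known for inducing Slc7a11, and ATF4, the transcription factor of the amino acid deprivation response, for inducing many of the others.

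Promoter sequences are shown for the 5 members that passed the test of fusion against empty vector, with or without the replicate block described below, and have a RefSeq promoter, so that their motif content can be read beside their levels. RefSeq promoters (GRCm38.p6; 250 bases before to 50 after a start site) were matched for 22 of the 31 members; Slc1a5, Slc38a1, Slc43a3, Slc6a6, Slc6a8, Slc7a2, Slc7a3, Slc7a4 and Slc7a5 were not matched. The antioxidant response element core, which NRF2 and its small MAF partners bind, was searched as TGACNNNGC, and the amino acid response core, bound by ATF4 with C/EBP proteins, as TGATGNAA, both on either strand, and matches were allowed to overlap. The sequences, each 300 bases and read 5′ to 3′ on the minus strand except Slc7a6 on the plus strand, are Slc38a4 (chr15:97055907-97056206), Slc6a17 (chr3:107517969-107518268), Slc3a2 (chr19:8713848-8714147), Slc1a4 (chr11:20332664-20332963) and Slc7a6 (chr8:106168671-106168970), with motif matches in capitals.
Slc38a4: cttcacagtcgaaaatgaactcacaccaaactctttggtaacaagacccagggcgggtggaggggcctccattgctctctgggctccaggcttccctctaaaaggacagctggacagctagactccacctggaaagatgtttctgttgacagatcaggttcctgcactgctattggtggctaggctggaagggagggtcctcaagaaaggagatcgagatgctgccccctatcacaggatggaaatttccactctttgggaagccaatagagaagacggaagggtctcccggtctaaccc
Slc6a17: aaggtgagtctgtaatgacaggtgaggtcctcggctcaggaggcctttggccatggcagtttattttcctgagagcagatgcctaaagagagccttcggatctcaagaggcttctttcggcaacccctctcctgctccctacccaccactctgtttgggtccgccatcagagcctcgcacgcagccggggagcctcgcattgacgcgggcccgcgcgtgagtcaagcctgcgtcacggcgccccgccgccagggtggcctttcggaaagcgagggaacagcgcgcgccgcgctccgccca
Slc3a2: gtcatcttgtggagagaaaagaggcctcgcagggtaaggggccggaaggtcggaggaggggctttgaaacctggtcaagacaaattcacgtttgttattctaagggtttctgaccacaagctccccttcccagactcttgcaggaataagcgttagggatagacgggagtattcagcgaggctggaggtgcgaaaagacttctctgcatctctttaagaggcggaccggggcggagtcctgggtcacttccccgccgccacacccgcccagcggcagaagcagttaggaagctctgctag
Slc1a4: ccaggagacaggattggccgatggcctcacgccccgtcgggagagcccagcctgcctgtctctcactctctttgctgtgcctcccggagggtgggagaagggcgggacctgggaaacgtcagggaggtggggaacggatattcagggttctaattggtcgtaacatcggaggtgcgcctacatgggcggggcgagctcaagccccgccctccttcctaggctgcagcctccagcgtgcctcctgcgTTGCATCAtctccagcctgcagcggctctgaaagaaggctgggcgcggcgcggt
Slc7a6: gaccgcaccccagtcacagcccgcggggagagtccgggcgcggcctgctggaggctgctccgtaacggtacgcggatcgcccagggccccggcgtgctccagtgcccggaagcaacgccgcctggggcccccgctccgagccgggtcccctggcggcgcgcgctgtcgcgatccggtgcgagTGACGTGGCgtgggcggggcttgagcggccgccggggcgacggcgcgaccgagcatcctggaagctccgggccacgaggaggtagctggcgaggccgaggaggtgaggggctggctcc

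Neither pattern was found in the 3 promoter windows of Slc38a4, the 2 of Slc6a17 or the 1 of Slc3a2. The capitals in Slc1a4 mark TTGCATCA, the amino acid response core read on the opposite strand, starting 4 bases before the start site. In Slc7a6 they mark TGACGTGGC, an antioxidant response element core starting 68 bases before the start site. Across the matched members this core stood in 8 of 34 promoters (23.5%), from Slc36a1, Slc38a2, Slc43a1, Slc6a9, Slc7a1 and Slc7a6, against 12.4% of all 32851 promoters of the same length. The amino acid response core stood in 3 of 34 (8.82%), from Slc1a4 and Slc7a7, against 3.97% of all promoters. The promoters of Slc6a9, Slc7a6 and Slc7a7 enter these shares through more than 1 window, and those of Slc7a6 and of Slc7a7 overlap in part. In these overlaps the same TGACGTGGC of Slc7a6 and the same TGATGCAA of Slc7a7 are each counted more than once. Over the 65 promoters of all members, reported or not, the antioxidant core stood in 16.9% and the amino acid response core in 6.15%. No member's promoter held both patterns. Slc7a11, outside the set, held the amino acid response core at 66 and at 47 bases before its start site. A match is a run of letters in this window and does not show binding.

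Reads assigned to genes numbered 26368182 to 59597170 per library. For Pax8, whose counts do not separate construct from endogenous reads, the level was 0.0401 CPM (a gene's reads scaled to the reads in all genes) in the WT library and 0.0334, 0.0358 and 0.217 CPM with empty vector, against 6.40, 8.53 and 5.57 CPM with the fusion. Nfe2l2 measured 119 ± 7.14 CPM with empty vector and 136 ± 11.9 CPM with the fusion (mean ± SD, n = 3 in each group here and below). The replicates numbered 3 were sequenced in other lanes than the rest, empty vector in lane 1 and fusion in lane 2. Within number 3, group and lane thus cannot be told apart. These libraries had the largest shares of reads aligned to several places, 45.3% and 44.8%. Libraries of the same number deviated together, so a second fit with the replicate number as a block is given wherever it changes a call. The labels give the numbers but state no pairing. Markers of the labelled prostate epithelial cells were low or near absent: over the 7 libraries Epcam ran from 0.0895 to 0.530 CPM, Cdh1 from 0.394 to 3.52 CPM and Krt8 from 0.521 to 1.90 CPM, and the prostate secretory gene Pbsn had at most 2 reads in a library. Krt18, an epithelial keratin, was higher with the fusion, at 4.23 to 8.06 CPM against 0.418 to 1.44 CPM with empty vector and 0.261 CPM in WT (log2 fold change 2.85, edgeR adjusted p = 0.030). The 6 mesenchymal markers, led by Vim, Col1a1 and Col1a2, summed to 14636 CPM in WT, 8601 to 13508 with empty vector and 8046 to 12530 with the fusion. The 5 immune markers summed to 1.00 CPM in WT, 1.52 to 2.67 with empty vector and 2.02 to 3.35 with the fusion, and the 4 endothelial ones stayed under 1 CPM in every library. The 5 neuroendocrine markers summed to 0.140 CPM in WT, 0.0895 to 0.317 with empty vector and 1.14 to 1.38 with the fusion, led by Insm1, which had no read outside the fusion libraries. The 4 neuronal and glial markers, mostly Tubb3, summed to 17.2, 20.7 to 29.4 and 25.3 to 35.6 CPM. The part of these marker levels in the results below was not tested.

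The question the design states is how cells with the fusion differ from cells with empty vector. Slc38a4, a sodium-coupled carrier of small neutral amino acids, fell with the fusion, and it was the 1 member of 31 that passed the test in the fit without a block, edgeR's quasi-likelihood test with Benjamini-Hochberg adjustment over all 16731 genes tested and a threshold of 0.05. In that fit 2.04% of all genes passed, 1.69% higher and 0.353% lower, so 1 of 31 (3.23%) is near the background. With the replicate block 7 members were higher and 3 lower, 10 of 31 (32.3%), against 7.63% and 5.5% of all genes, 13.1% together. The 7 higher were Slc1a4, Slc3a2, Slc6a6, Slc6a17, Slc7a2, Slc7a4 and Slc7a6. Of these, Slc1a4 is a neutral amino acid exchanger, Slc3a2 a heavy chain, Slc6a6 a taurine carrier and Slc6a17 a vesicular carrier. Slc7a2 is a cationic carrier, Slc7a4 a relative of the cationic carriers and Slc7a6 a light chain. The 3 lower were Slc38a4, the large neutral amino acid light chain Slc7a5, and Slc43a3. DESeq2 without a block called 5 members, with 3 higher and 2 lower, against 3.72% and 1.79% of all genes, 5.51% together. Over the 31 members the median log2 fold change was 0.03, beside 0.01 over all genes tested, and fitted values ran from -1.71 to 1.55. In bulk RNA, fewer cells expressing a gene and less RNA per cell cannot be told apart.

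**Figure D1:**
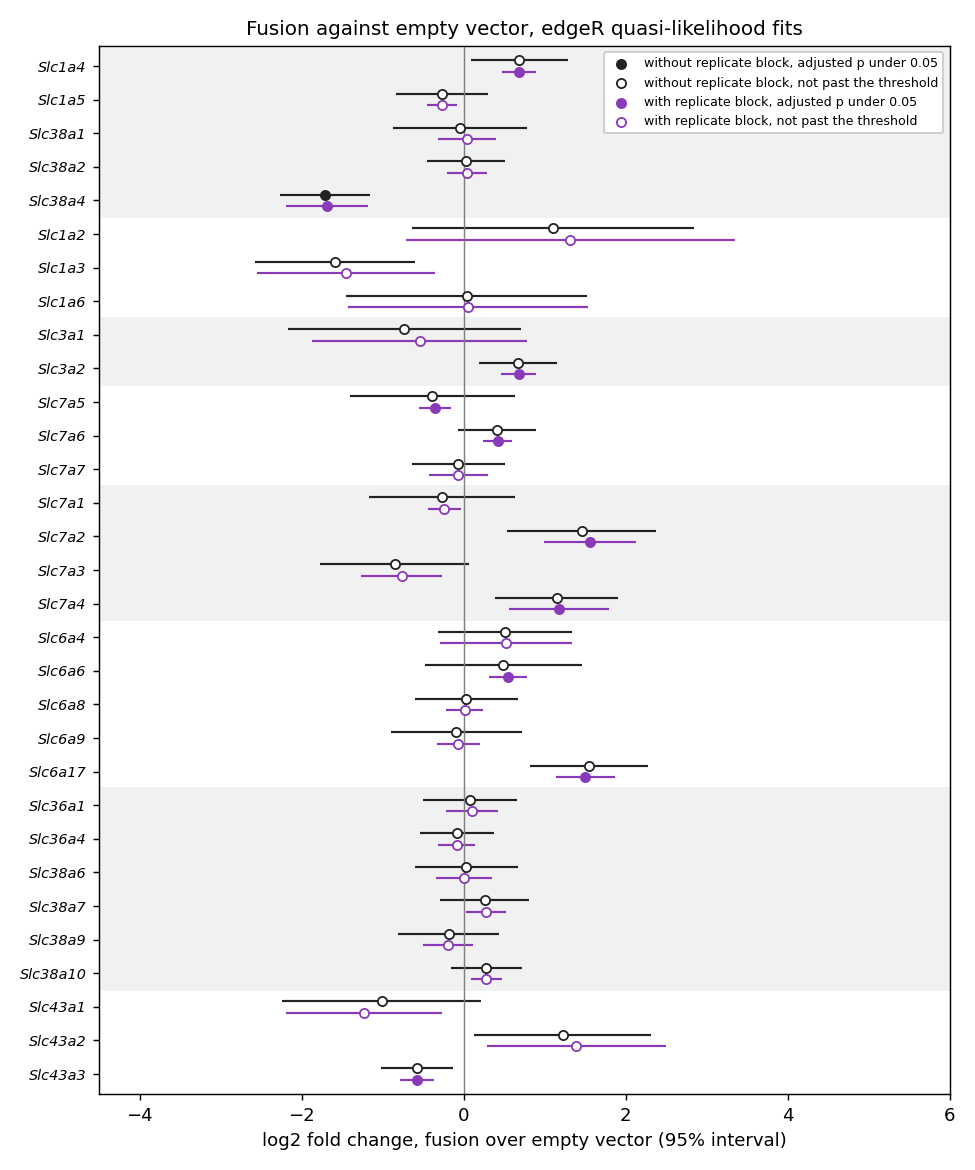
Log2 fold change of the 31 members, fusion over empty vector, with 95% intervals from edgeR's quasi-likelihood fits without (black) and with (purple) the replicate block; filled points passed an adjusted p of 0.05 and shading separates transport roles. Slc38a4 is filled in both fits, and 9 further members are filled in purple alone, with fold changes that lie close to the black ones and shorter intervals.

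By level per length, Slc38a2 and Slc3a2 stood highest in both transduced groups. On the scale of CPM per kb of merged exons, Slc38a2, the amino acid-responsive carrier of alanine and glutamine, measured 79.9 ± 14.3 with empty vector and 81.4 ± 7.48 with the fusion. Slc3a2 followed at 65.7 ± 10.1 with empty vector and stood first in the fusion libraries at 104.9 ± 14.7. Slc7a5 stood at 54.3 ± 28.4 and 41.5 ± 18.9, and Slc6a6 at 33.3 ± 16.6 and 46.9 ± 17.6. The wide SDs of Slc7a5 and Slc6a6 mean that their order relative to neighbours in the empty vector group was not resolved beyond the spread of replicates. Slc38a10 (33.3 and 40.5), Slc1a4 (23.4 and 37.6), Slc1a5 (30.7 and 25.5) and Slc7a6 (19.9 and 26.5) completed the 8 highest over all 7 libraries, and the same 8 were highest per kb of the longest principal transcript. Slc38a4 ranked among these 8 with empty vector at 30.1, and stood at 9.18 with the fusion. The WT library led with Slc38a2 as well, at 104 CPM per kb.

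**Figure D2:**
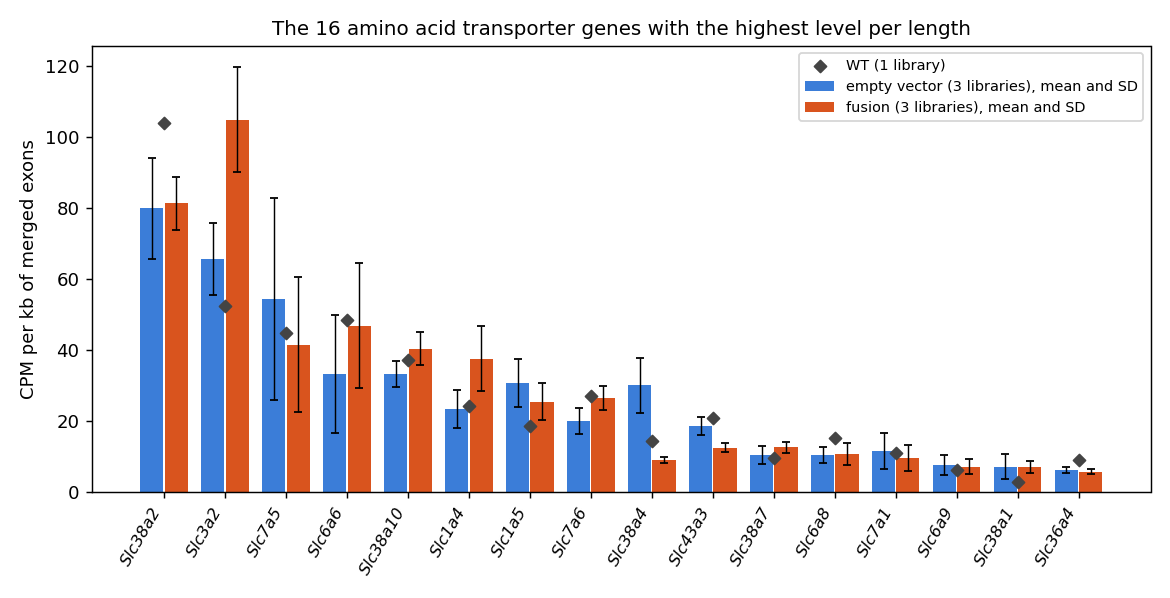
Level per length (CPM per kb of merged exons) of the 16 members with the highest mean over the 7 libraries; bars are means of 3 libraries with SD, and diamonds mark the single WT library. Slc3a2 is at 65.7 and 104.9 and Slc38a2 at 79.9 and 81.4, and Slc38a4 is the member whose fusion bar, at 9.18, is farthest below its empty vector bar in proportion.

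Among neutral amino acid carriers, Slc38a4 (ENSMUSG00000022464.12, chromosome 15:96994820-97055956, minus strand, GRCm38) measured 153, 141 and 90.4 CPM in empty vector replicates 1, 2 and 3 and 39.8, 35.3 and 42.3 CPM in fusion replicates 1, 2 and 3. All 3 fusion libraries lay below the lowest empty vector library, and the WT library, at 61.1 CPM, lay between the groups. The means were 128 ± 33.3 and 39.1 ± 3.54 CPM, a log2 fold change of -1.71 (SE 0.24, 95% interval -2.27 to -1.15, edgeR adjusted p = 0.012). The drop was smaller in the pair numbered 3: log2 ratios of fusion over empty vector were -1.94, -2.00 and -1.10 for numbers 1, 2 and 3. Without empty vector replicate 2, fusion replicate 1 or fusion replicate 2 the edgeR adjusted p was 0.060, 0.052 and 0.066, with fold changes of -1.64, -1.72 and -1.64. Without both libraries numbered 1 it was 0.17, and without both numbered 2 it was 0.35. In those fits, in that order, 0.245% and 0.0239% of all genes passed.

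Slc1a4 (ENSMUSG00000020142.11, chromosome 11:20302180-20332713), an exchanger of alanine, serine and cysteine, measured 106, 101 and 67.8 CPM with empty vector and 154, 180 and 110 CPM with the fusion, with 95.1 CPM in WT. Every fusion library was above every empty vector library, although fusion replicate 3 lay within 4 CPM of empty vector replicate 1. Its log2 fold change was 0.69 (SE 0.26, edgeR adjusted p = 0.35), and with the replicate block 0.68 (SE 0.09, adjusted p = 0.0057). Slc1a5, the glutamine exchanger of the same family, measured 135, 153 and 96.9 CPM with empty vector and 118, 120 and 81.3 CPM with the fusion. The groups overlapped. Their difference on the log2 scale was -0.27 (95% interval -0.84 to 0.30, edgeR adjusted p = 0.88). Slc38a2 gave 851, 648 and 619 CPM with empty vector against 746, 768 and 644 CPM with the fusion, a log2 fold change of 0.03 (95% interval -0.46 to 0.51). The glutamine carrier Slc38a1 gave 187, 118 and 69.0 CPM against 149, 123 and 91.1 CPM. For both, the fusion libraries lay inside the empty vector range. Slc38a1, Slc38a2 and Slc38a4 are neighbours on chromosome 15, between 96571418 and 97055956, and of the 3 Slc38a4 was the member that fell.

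The glutamate and aspartate carriers were low. Slc1a3 (ENSMUSG00000005360.13, chromosome 15:8634124-8710764), the glial-type glutamate carrier, measured 29.1, 37.6 and 10.7 CPM with empty vector and 6.90, 9.98 and 8.94 CPM with the fusion, with 26.4 CPM in WT. The fusion libraries lay below all empty vector libraries, but empty vector replicate 3 was within 1 CPM of fusion replicate 2. The log2 fold change was -1.58 (SE 0.43, edgeR adjusted p = 0.14; 0.096 with the replicate block), and DESeq2 called it (adjusted p = 0.0065). Without empty vector replicate 3 the edgeR value was -1.95 with an adjusted p of 0.013, while leaving out any other single library gave -1.71 to -1.21 with adjusted p from 0.23 to 0.46. Slc1a2 and Slc1a6 stayed at or under 0.381 CPM in every library.

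The heavy chain Slc3a2 (ENSMUSG00000010095.12, chromosome 19:8706882-8723369) measured 260, 244 and 192 CPM with empty vector, 365, 425 and 321 CPM with the fusion and 185 CPM in WT. All 3 fusion libraries were above all 4 others. The means of 232 ± 35.6 and 370 ± 52.0 CPM gave a log2 fold change of 0.67 (SE 0.21, 95% interval 0.19 to 1.16, edgeR adjusted p = 0.21), and the replicate block gave 0.68 (SE 0.09, adjusted p = 0.0069). Its light chain Slc7a11, outside the set and a known NRF2 target, averaged 115 ± 26.8 CPM with empty vector and 302 ± 68.4 CPM with the fusion, a fitted difference of 1.39 on the log2 scale (edgeR adjusted p = 0.037). Slc3a1, the heavy chain of the cystine carrier of kidney and gut, was at 0.602, 0.107 and 0.289 CPM with empty vector and 0.229, 0.183 and 0.187 CPM with the fusion, and the groups overlapped.

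The other light chains did not move in 1 direction. Slc7a5 (ENSMUSG00000040010.10, chromosome 8:121881150-121907694), the exchanger that brings leucine and other large neutral amino acids into dividing cells, measured 315, 182 and 107 CPM with empty vector and 230, 139 and 92.6 CPM with the fusion. The groups overlapped widely, yet the fusion library was the lower of each numbered pair, by log2 ratios of -0.45, -0.39 and -0.21. The log2 fold change was -0.39 (SE 0.44, edgeR adjusted p = 0.93), and -0.35 with the replicate block (SE 0.08, adjusted p = 0.040). Slc7a6 (ENSMUSG00000031904.4, chromosome 8:106168857-106198706), which exchanges cationic for neutral amino acids, measured 108, 90.7 and 74.8 CPM against 136, 121 and 106 CPM. Fusion replicate 3 fell just inside the empty vector range, and each pair was higher with the fusion, by 0.34, 0.42 and 0.50. Without the block the log2 fold change was 0.41 (SE 0.21, edgeR adjusted p = 0.58), and 0.42 with the block (SE 0.08, adjusted p = 0.019). Slc7a7, the light chain with the same kind of exchange, was at 4.81 to 6.02 CPM with empty vector and 4.48 to 5.77 CPM with the fusion.

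**Figure D3:**
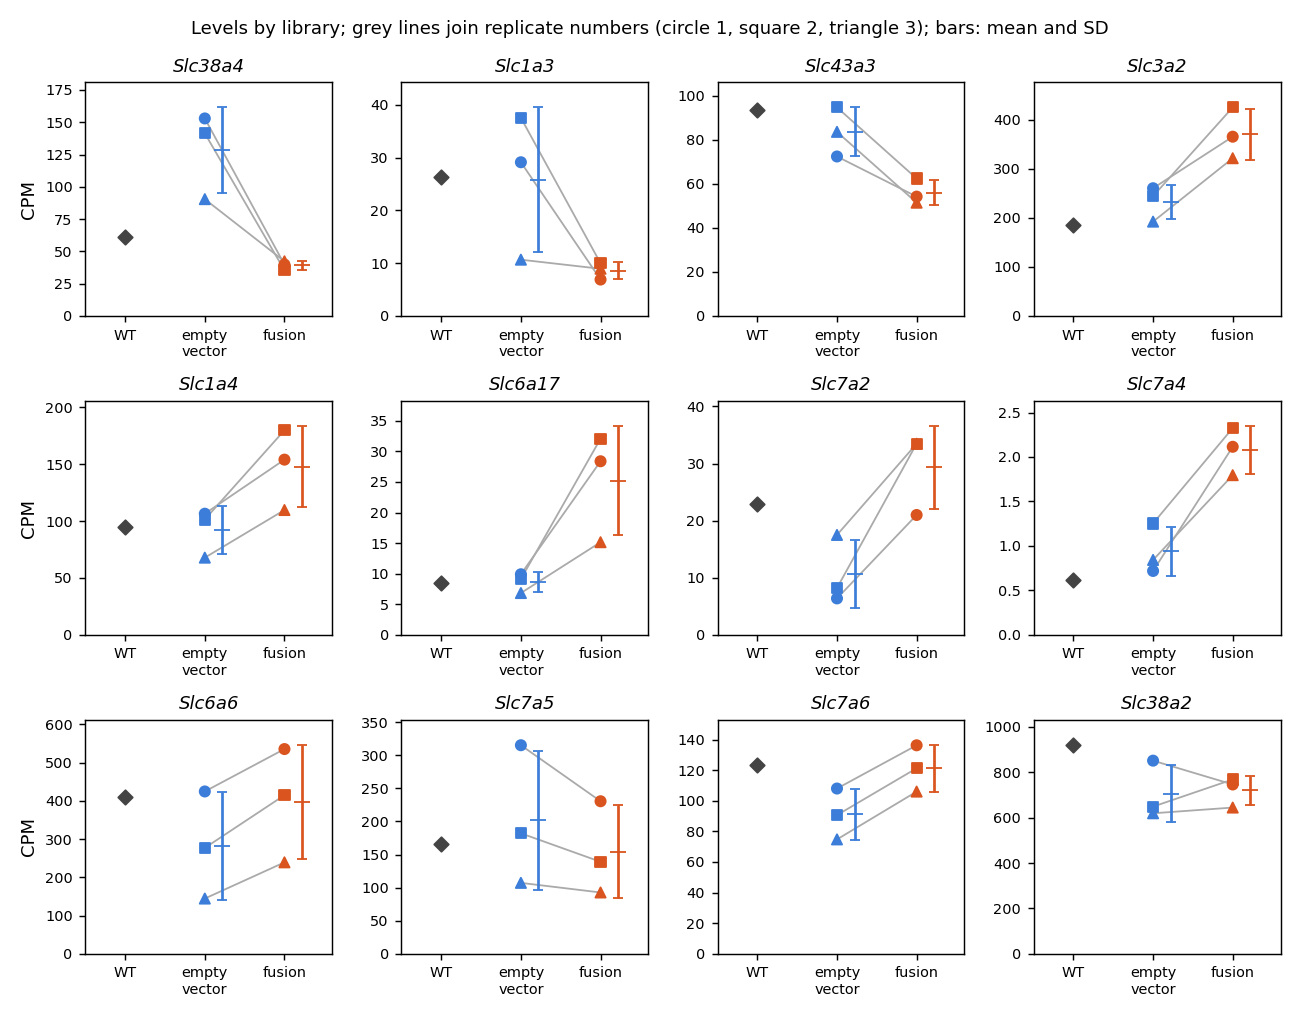
Levels (CPM, linear axes from 0) of 12 members by library; grey lines join empty vector and fusion libraries of the same replicate number, crosses with bars give mean and SD of 3 libraries, and the diamond is the WT library. Slc38a4, Slc1a3, Slc43a3, Slc3a2, Slc1a4, Slc6a17, Slc7a2 and Slc7a4 show groups without overlap, while Slc6a6, Slc7a5 and Slc7a6 show overlapping groups with lines that all slope the same way.

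Cationic amino acid carriers split. Slc7a2 (ENSMUSG00000031596.14, chromosome 8:40862396-40922308), an arginine and lysine carrier that feeds nitric oxide synthesis in macrophages, measured 6.38, 8.20 and 17.5 CPM with empty vector and 21, 33.5 and 33.5 CPM with the fusion. The groups did not overlap, but the WT library, at 22.9 CPM, lay above every empty vector library and within the fusion range. The log2 fold change was 1.46 (SE 0.40, edgeR adjusted p = 0.15), 1.56 with the replicate block (SE 0.22, adjusted p = 0.013), and 2.01 without empty vector replicate 3 (adjusted p = 0.020). Leaving out any other single library gave 1.18 to 1.65, with edgeR adjusted p from 0.18 to 0.46. Slc7a4 (ENSMUSG00000022756.14, chromosome 16:17572018-17583214), a relative of the cationic carriers, rose under the block from a low level, 0.719, 1.25 and 0.842 CPM against 2.11, 2.33 and 1.80 CPM. Its log2 fold change was 1.15 (SE 0.33, edgeR adjusted p = 0.17), and 1.18 with the block (SE 0.25, adjusted p = 0.032). DESeq2 without a block called Slc7a2 and Slc7a4 (DESeq2 adjusted p = 0.012 and 0.038). Both genes share exonic sequence with a gene on the other strand, and the sources used here do not give the strand setting of the counting. Part of these reads may thus belong to the partner, or reads of these genes may be missing as ambiguous. The same holds for Slc1a2, Slc3a1, Slc6a6, Slc6a9, Slc7a7, Slc38a9, Slc38a10 and Slc43a2. Slc7a1, the widely expressed arginine carrier, gave 192, 137 and 74.3 CPM against 155, 109 and 70.4 CPM, and Slc7a3 gave 3.02, 6.32 and 8.16 CPM against 2.36, 3.74 and 3.59 CPM. In Slc7a1 and Slc7a3 the fusion library was the lower in each pair, and neither passed the test with or without the block.

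In the SLC6 family, Slc6a17 (ENSMUSG00000027894.13, chromosome 3:107467543-107518018), a carrier of neutral amino acids known from synaptic vesicles, measured 9.91, 9.13 and 6.84 CPM with empty vector and 28.4, 32.1 and 15.1 CPM with the fusion. The lowest fusion library was above the highest empty vector library, and the WT library, at 8.56 CPM, lay within the empty vector range. The means were 8.63 ± 1.60 and 25.2 ± 8.90 CPM. The log2 fold change of 1.55 (SE 0.32, 95% interval 0.82 to 2.28) had an edgeR adjusted p of 0.055, against 0.0029 with the replicate block and 0.00023 by DESeq2. Without fusion replicate 3, the lowest of its group, the edgeR value was 1.81 with an adjusted p of 0.013, while leaving out any other single library gave 1.34 to 1.65 with adjusted p from 0.082 to 0.18. Slc6a6 (ENSMUSG00000030096.7, chromosome 6:91684053-91759066) measured 424, 277 and 144 CPM against 535, 415 and 239 CPM, with 411 CPM in WT. Its groups overlapped, and the pairs differed by log2 ratios of 0.33, 0.58 and 0.73. The log2 fold change was 0.49 (SE 0.42, edgeR adjusted p = 0.87), and 0.55 with the block (SE 0.10, adjusted p = 0.017). The creatine carrier Slc6a8 had group means of 54.8 ± 11.3 and 56.1 ± 16 CPM, the glycine carrier Slc6a9 39.6 ± 15 and 37.1 ± 11.3 CPM, and the serotonin carrier Slc6a4 stayed at or under 1.05 CPM. None of Slc6a8, Slc6a9 and Slc6a4 passed the test in either fit.

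The SLC43 facilitators carry large neutral amino acids (Slc43a1 and Slc43a2) and purine nucleobases (Slc43a3). Slc43a3 (ENSMUSG00000027074.13, chromosome 2:84936579-84958509), which thus belongs to the families by sequence rather than by substrate, measured 72.4, 94.7 and 83.6 CPM with empty vector and 54.2, 62.4 and 51.4 CPM with the fusion, and the WT library measured 93.3 CPM. Every fusion library was below every other library. The log2 fold change was -0.58 (SE 0.19, edgeR adjusted p = 0.26), and -0.57 with the block (SE 0.09, adjusted p = 0.011). Slc43a2 gave 4.48, 3.08 and 1.03 CPM against 5.96, 7.71 and 6.51 CPM, without overlap. Its log2 fold change of 1.23 had an SE of 0.48 and an edgeR adjusted p of 0.36, or 0.10 with the block. Slc43a1 gave 2.17, 1.74 and 2.31 CPM against 0.553, 0.568 and 2.06 CPM, so its fusion replicate 3 stood with the empty vector libraries, and among the fits without 1 library edgeR called it in the fit without that library alone. Fitted values of the 2 carriers of leucine had opposite signs, and neither passed the test in either edgeR fit of all 6 libraries.

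The 6 members grouped as lysosomal and intracellular did not pass the test in either fit. Slc38a10 gave 208, 240 and 194 CPM with empty vector and 234, 293 and 253 CPM with the fusion (log2 fold change 0.28, 95% interval -0.16 to 0.72). Slc36a4, a carrier with high affinity for proline and tryptophan, gave 46.6, 37.7 and 36.9 CPM against 41.3, 40.2 and 32.5 CPM. Groups overlapped for both. The lysosomal glutamine exporter Slc38a7 had means of 43.7 ± 10.6 and 52.3 ± 6.49 CPM, Slc38a9, the lysosomal arginine sensor of mTORC1, 11.2 ± 2.21 and 9.89 ± 2.30 CPM, the lysosomal exporter Slc36a1 14.4 ± 3.70 and 15.2 ± 1.58 CPM, and Slc38a6 9.29 ± 1.32 and 9.53 ± 2.76 CPM.

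**Figure D4:**
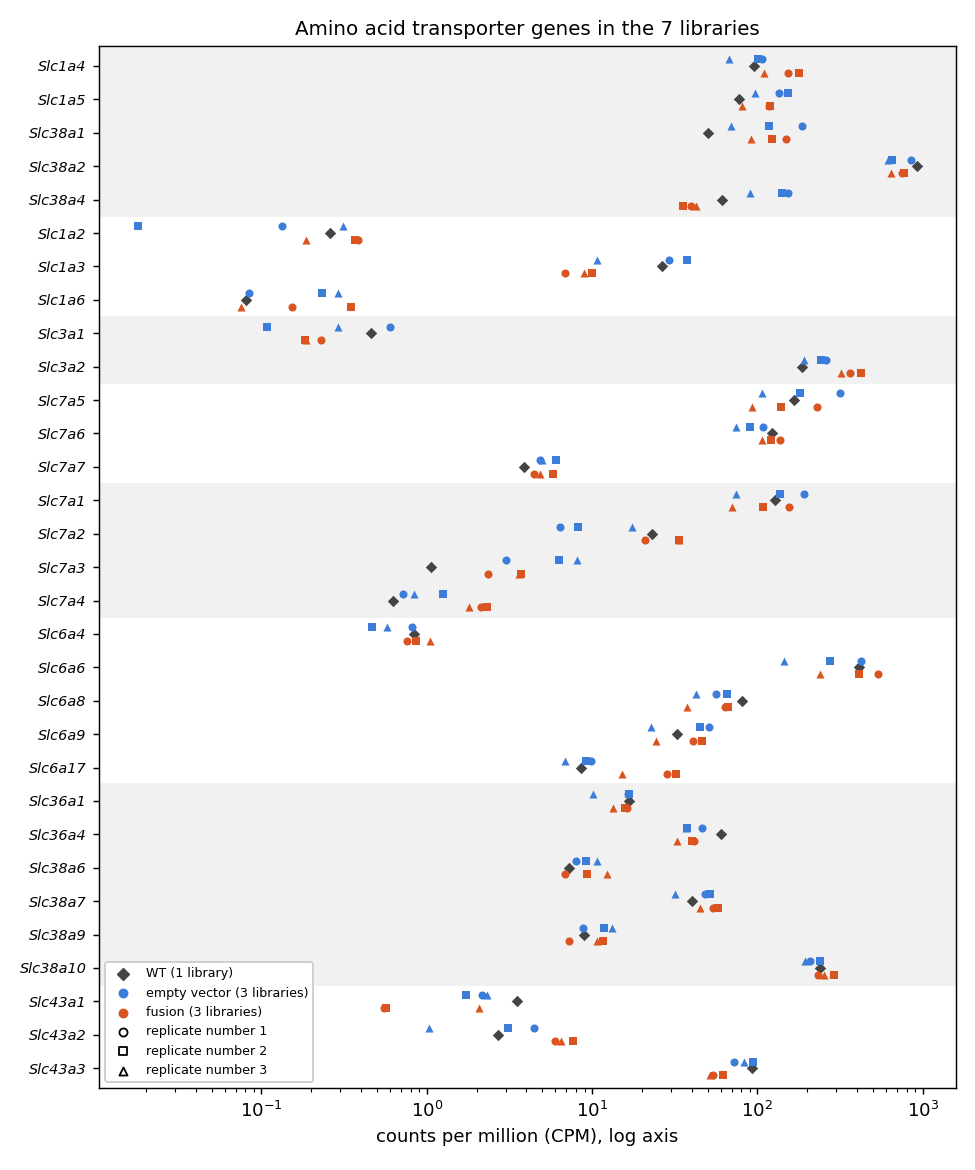
Level (CPM, log axis) of the 31 members in each of the 7 libraries, grouped by transport role; the marker shape gives the replicate number. Levels span from under 0.1 CPM (Slc1a2, Slc1a6) to 919 CPM (Slc38a2 in WT), and Slc38a4, Slc6a17 and Slc3a2 are among the members whose fusion points stand apart from the empty vector points.

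Without any model, all 3 fusion libraries were higher than all 3 empty vector libraries for 6 members (Slc1a4, Slc3a2, Slc6a17, Slc7a2, Slc7a4 and Slc43a2), against 9.15% of all genes tested. All 3 were lower for 3 members (Slc1a3, Slc38a4 and Slc43a3), against 6.65% of all genes. By numbered pairs, the fusion library was higher in each pair for 10 members and lower in each pair for 10, against 27.8% and 24.6% of all genes. As shares of the 31 members these are 19.4%, 9.68%, 32.3% and 32.3%.

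Against the WT library, the members' fold changes rest on 1 library on that side, whose spread was assumed to equal that of the other groups. These comparisons share libraries with the one above. Between empty vector and WT, 0 of 31 members passed edgeR's test, where 0.0% of all genes did, 3 had an unadjusted p under 0.05 (4.46% of all genes), and DESeq2 called 1, Slc7a3 (0.46% of all genes). With the replicate block 0 members passed as well, where 0.12% of all genes did. In that fit 11 of 31 members had an unadjusted p under 0.05, against 20.2% of all genes. Slc7a3, a cationic carrier, measured 1.06 CPM in WT and 3.02 to 8.16 CPM with empty vector (log2 fold change 2.45, edgeR adjusted p = 0.81, DESeq2 adjusted p = 0.016). Between fusion and WT, 0 of 31 passed edgeR's test (0.436% of all genes), 9 had an unadjusted p under 0.05 (7.67% of all genes), and DESeq2 called 1, Slc6a17 (2.98% of all genes). With the replicate block, in which WT carries number 1, 6 members were called, 5 higher and 1 lower, against 9.81% of all genes, 4.57% higher and 5.25% lower: Slc38a1, Slc6a17, Slc3a2, Slc1a4 and Slc1a5 higher, and Slc43a3 lower. Their log2 fold changes in that fit were 1.77, 1.72, 1.07, 0.77, 0.57 and -0.86, with edgeR adjusted p from 0.014 to 0.037. For empty vector over WT with the block, the same genes in that order had 1.73, 0.22, 0.40, 0.09, 0.84 and -0.29. Slc38a1 and Slc1a5 were thus fitted above WT with empty vector too, although neither passed the test there (blocked edgeR adjusted p = 0.056 for each). Their blocked values of fusion over empty vector were 0.04 and -0.27.

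WT lay below all 6 transduced libraries for 6 members (Slc1a5, Slc3a2, Slc7a3, Slc7a4, Slc7a7 and Slc38a1), against 11.8% of all genes. It lay above all 6 for 5 members (Slc6a8, Slc36a1, Slc36a4, Slc38a2 and Slc43a1), against 12.4%. Slc38a1 measured 50.0 CPM in WT and 69.0 to 187 CPM in the transduced libraries, and Slc38a2 measured 919 CPM in WT and 619 to 851 CPM in the transduced libraries. For Slc38a4 the WT level of 61.1 CPM was below each empty vector library and above each fusion library, with log2 fold changes of 1.07 (empty vector over WT) and -0.64 (fusion over WT), neither past edgeR's threshold (adjusted p = 0.92 and 0.75). Slc7a2 had the opposite arrangement toward empty vector: its WT level was above each empty vector library.

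Other genes of amino acid transport were read from a list of carriers outside the 7 families, with Slc7a11, the mitochondrial, vesicular and lysosomal carriers and the accessory proteins of the SLC6 family. Of 24 matched genes 17 could be tested, and 1 was higher and 0 lower in the fusion (Slc7a11), with a median log2 fold change of 0.20 beside 0.01 for all genes. With the replicate block 2 were higher, Slc7a11 and the mitochondrial carrier of basic amino acids Slc25a29 (0.88, edgeR adjusted p = 0.041), and 1 was lower, the aromatic amino acid carrier Slc16a10 (-1.31, edgeR adjusted p = 0.0090), where 7.63% of all genes were higher and 5.5% lower. A second list held the amino acid sensors and mTORC1 regulators, which read amino acid supply and set growth. Of its 36 matched genes 35 were tested and 0 passed edgeR's test without the block, with 2 at an unadjusted p under 0.05 (10.9% of all genes) and 0 called by DESeq2. Its median log2 fold change was 0.01.

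With the block, 3 genes of the sensing list were higher, the lysosomal transcription factors Tfeb (0.82) and Tfe3 (0.63) and the folliculin partner Fnip2 (0.47), with edgeR adjusted p of 0.017, 0.012 and 0.035. In the same fit 2 were lower. These 5 of 35 are near the 13.1% of all genes called in that fit, so they are given as values of single genes and not as a result about the list. Atf4 averaged 812 ± 89.2 CPM with empty vector and 593 ± 74.1 CPM with the fusion, with a blocked log2 fold change of -0.46 (edgeR adjusted p = 0.014, and 0.47 without the block), while Sesn2, a leucine sensor that ATF4 induces, averaged 45.6 ± 6.55 and 27.1 ± 7.37 CPM (-0.77, edgeR adjusted p = 0.0075, and 0.26 without the block).

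The 31 members below the reporting limit had few reads in this line, and none entered the test. No read was counted in any of the 7 libraries for 8 of them (Slc6a11, Slc6a21, Slc7a9, Slc7a10, Slc7a12, Slc36a2, Slc36a3 and Slc38a8), which allows levels of up to 0.0503 to 0.114 CPM, the value of 3 reads in each library, for counting error alone. Of the 31, 29 reached 10 reads in no library. The noradrenaline carrier Slc6a2 and the neutral amino acid carrier Slc6a15 did, and were singled out after their values were seen. Slc6a2 had 29 reads in WT and 0 to 8 in the other libraries. Slc6a15 had 11 and 25 reads in fusion replicates 1 and 2 and 0 in fusion replicate 3, against 0, 1 and 2 with empty vector and 0 in WT. By family, the reported share ran from 5 of 21 in SLC6, many of whose members carry neurotransmitters, to 3 of 3 in SLC43 and 2 of 2 in SLC3, with 5 of 7 in SLC1, 7 of 14 in SLC7, 2 of 4 in SLC36 and 7 of 11 in SLC38.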

How the data were processed

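The deposited values are read counts per gene and sequencing lane from 50-base single-end RNA-seq of 7 libraries. Per the submitters' processing notes the tools include STAR and HTSeq and the build is GRCm38; the sources used here do not give their versions, the annotation release or the strand setting. Counts of 12 lane tables were summed per library (26368182 to 59597170 reads in genes). Rows naming no gene were left out: reads in no feature were 5.73% to 6.93% and ambiguous reads 1.22% to 1.48%, and 92 spike-in rows were left out too. Symbols and exon lengths came from GENCODE M21, matched for 46091 of 46603 gene IDs without version numbers. Groups were taken from the labels. Some of the epithelial markers are not reported here. Levels are CPM with TMM factors over the 7 libraries, from 0.944 to 1.04.

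Genes were tested with edgeR 4.0.16 (R 4.3.3; quasi-likelihood F test, robust; TMM; filterByExpr with a minimum count of 10; Benjamini-Hochberg over 16731 genes; threshold 0.05). The fusion comparison used the 6 transduced libraries, and the WT comparisons all 7. Intervals are at 95%. A fit with the replicate number as a block, DESeq2 1.42.0, other filters and scalings, and fits without single libraries were alternatives. Deviations from the group means correlated over the genes tested at 0.535, 0.488 and 0.459 between libraries of the same number and at -0.427 to -0.0497 between different numbers, so the numbers were taken to pair the samples. Deviations cancel within a group, so positive values for the same number bring negative ones between different numbers. The labels state no pairing, which was read from the same counts that the blocked fit uses. The fit without a block was also run on simulated counts, with less spread between libraries than these data and no effect of replicate number. That run does not show how either fit performs at the spread of these data, and the blocked fit was not simulated.

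Named were members passing the test of fusion against empty vector with or without the block, the 8 highest per kb and both heavy chains. In each family the highest per kb and the largest fold change were named too. A rule for members called against WT by edgeR without a block added 0. The named members were 17 in all. The other 14 reported members are given to account for the set, and any singled out among them were chosen after their values were seen. The members, gene lists and motifs were chosen with earlier results of these data known.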

Additional observations from a re-analysis of the deposited data

How the results depend on the processing

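For fusion against empty vector, 1 member passed without a block. The count was 3 with no filter on low counts (1.96% of all genes), 5 with DESeq2 (5.51%) and 10 with the replicate block (13.1%). It was 15 with DESeq2 and the block together, an alternative chosen after seeing the data in which 17.8% of all genes were called. Leaving out 1 library at a time gave 0 to 3, where 0.831% to 2.23% of all genes were called. Leaving out the libraries numbered 1, 2 or 3 in both groups gave 0, 0 and 3, where 0.245%, 0.0239% and 1.92% of all genes were called. Without number 3 and with the replicate block the count was 15, where 19.6% of all genes were called. The count stayed at 1 with DESeq2 size factors, with a filter of 10 reads in 3 libraries and with all 7 libraries in the fit. For empty vector against WT it went from 0 to 1 with DESeq2 and stayed at 0 with the block. For fusion against WT it went from 0 to 1 with DESeq2 and to 6 with the block. Calls in the list of other transport genes went from 1 to 3 with the block and 2 with DESeq2, and in the sensing list from 0 to 5 with the block. The causes of these shifts were not tested.

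Among the refits of the 17 named members, 231 kept direction and side of the threshold, 44 passed it anew, 5 lost it (all Slc38a4) and 9 changed sign, in members that were not called without a block. Leaving out 1 library at a time, the log2 fold change of Slc7a5 ran from -0.80 to 0.093 (positive without empty vector replicate 1), of Slc38a2 from -0.059 to 0.18 (negative without empty vector replicate 2 or 3 or fusion replicate 2), of Slc3a1 from -1.16 to 0.044 (positive without empty vector replicate 1) and of Slc36a4 from -0.15 to 0.024 (positive when empty vector replicate 1 or fusion replicate 3 was dropped). Slc38a2 was also at -0.0098 with no filter and at -0.080 without number 2 in both groups. Depth limits the members under 1 CPM most, since 3 reads are 0.0503 to 0.114 CPM.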

Other observations

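Differences between replicate numbers were as large as differences between groups for several members. Chosen after the values were seen, 6 members had number 1 highest and number 3 lowest in both the empty vector and the fusion group: Slc7a5, Slc6a6, Slc7a6, Slc7a1, Slc38a1 and Slc36a4. That is 19.4% of the 31 members, against 12.3% of all genes tested. For Slc7a5 the empty vector libraries ran from 315 to 107 CPM and the fusion libraries from 230 to 92.6 CPM, a wider range than the 201 and 154 CPM of the group means. For Slc6a6 they ran from 424 to 144 CPM and from 535 to 239 CPM, beside means of 282 and 396 CPM. The cause was not tested.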
